A study of Homo sapiens with 2 samples.

Results

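The regions described here are the narrowest SOX9 peaks of VCaP cells. They were chosen by width: every peak on chromosomes 1 to 22 whose width, end minus start, equalled the shortest in the SOX9 peak list, which was 1 bp below 244 bp. There were 586 such peaks among 7437 autosomal SOX9 peaks, a list of 7547 peaks over all chromosomes and 7948 peaks in the SOX9 and input lists together. The other 6851 autosomal peaks are called the wider peaks.

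VCaP, an established prostate cancer line of human origin, is positive for the TMPRSS2-ERG fusion and expresses SOX9 highly at baseline. Chromatin of VCaP cells grown in DMEM with serum was fixed with formaldehyde, sonicated and precipitated with an antibody against SOX9 (1 library), and input DNA set aside from the same kind of chromatin was sequenced without antibody (1 library). The labels name no treatment for either library, and each is represented by a list of peaks with a position in build hg18 and a score. The peak names call the SOX9 library replicate 2, and no other replicate was analysed here, so there is no replicate error. The read depth is unknown, no p-value was computed, and intervals cover counting error over peaks of 1 library only.

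SOX9 is a transcription factor that binds DNA through an HMG-box domain, bends it, and acts in prostate epithelial development. In ChIP-seq, a called region spans the stretch over which sequenced fragments pile up, so its width depends on fragment length as well as on how far binding extends. Many peak callers report no region below a set length. The labels do not name the caller behind these lists. The labels state that library fragments of about 250 bp, adaptors included, were cut from the gel.

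The minimum width stood out by its count. It was held by 586 peaks, 7.88% of the autosomal list (exact Clopper-Pearson 95% interval 7.28 to 8.52%). The next width, 244 bp, was held by 32 peaks, and 245 bp by 21. Over the 100 widths just above the minimum, a given width was held by 11 to 36 peaks, with a median of 21. The input list had its own floor at 138 bp, with 25 of 401 peaks at that width (6.23%, 4.07 to 9.07%), and 3 input peaks had the minimum width of the SOX9 list. Outside the autosomes, the X chromosome held 11 minimum-width peaks among 88 (interval of the share 6.41 to 21.3%), while Y held 0 of 14 and mitochondrial DNA 0 of 8.

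The minimum-width peaks were weak by the authors' score, a number of unstated scale given to each peak. Score and width come from the same peak calls, so these values are a description of the chosen peaks and not a test. Their median score was 3.96, with quartiles of 3.10 and 4.78 and a range from 1.51 to 9.04. The wider peaks had a median of 9.02, quartiles of 5.17 and 21.9, and a range from 1.33 to 602. The ranges overlapped, but the upper quartile of the minimum-width peaks lay below the lower quartile of the wider ones. Of the 586 peaks, 132 (22.5%) scored below 3 and 488 (83.3%) below 5, compared with 3.80% and 23.9% of the wider peaks. Only 6 (1.02%, 0.377 to 2.22%) reached 7.94, the median of the whole list, against 3834 of 6851 wider peaks (55.96%, 54.8 to 57.1%). A total of 3353 autosomal peaks (45.1%) scored above the highest minimum-width peak.

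Scores rose with width from the first step above the floor. The 226 peaks that were 1 to 9 bp wider, just outside the rule, scored 4.82 at the median, with quartiles of 3.88 and 5.92, and 18 of them (7.96%) reached the list median. The median was 4.92 for the rest of the peaks up to 300 bp, 7.71 for those above 300 and up to 500 bp, 13.9 for those up to 1000 bp, and 37.9 for those above 1000 bp. By its median the minimum-width set was the lowest of these width classes, and the peaks up to 9 bp wider lay next to it.

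**Figure D1:**
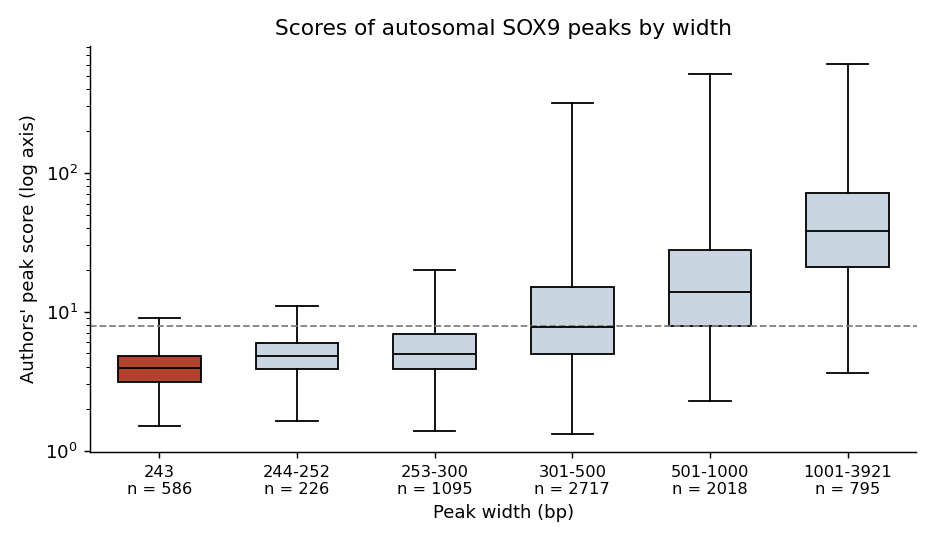
Authors' peak score (log axis) of autosomal SOX9 peaks in 6 width classes in bp. Boxes span the quartiles, the line in each box is the median, whiskers reach the lowest and highest peak, and the dashed line is the median of the whole list at 7.94; the minimum-width class, in red, has its median at 3.96 and its highest peak at 9.04.

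Seen from the score, minimum-width peaks were most common at the bottom of the list. Minimum-width peaks made up 132 of the 392 autosomal peaks scoring up to 3 (33.7%, 29.0 to 38.6%) and 259 of 988 scoring above 3 and up to 4 (26.2%, 23.5 to 29.1%). They were 97 of 744 between 4 and 5 (13.0%), 61 of 698 between 5 and 6 (8.74%), and 32 of 930 between 6 and 8 (3.44%). Above 8 they were 5 of 3685 (0.136%, 0.0441 to 0.316%). Only 2 autosomal peaks scored below the lowest minimum-width peak, and both were wider. The weakest peaks of the list were therefore not all at the minimum width: of the 392 peaks scoring up to 3, 260 were wider.

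Many minimum-width peaks shared their score with others of the set. The 586 peaks held 174 distinct scores, and 113 peaks had a score that no other minimum-width peak had. The 6851 wider peaks held 1963 distinct scores, and 1295 had a score that no other wider peak had. The 226 peaks up to 9 bp wider held 115 distinct scores, and 86 had a score that no other of them had. Such counts depend on the size of a set and on its range of scores, so the sets were not compared by them. The 10 values that were each held by at least 10 of the minimum-width peaks accounted for 306 of them (52.2%). The most frequent was 3.99, with 89 peaks (15.2%) on 20 chromosomes. It was followed by 3.11 with 68 peaks (11.6%) on 18 chromosomes and 4.92 with 42 peaks (7.17%) on 16 chromosomes. The values 2.28 and 5.89 were held by 31 and 17 peaks. These 5 values together held 247 of the 586 peaks (42.2%, 38.1 to 46.3%), compared with 61 of the 226 peaks up to 9 bp wider (26.99%, 21.3 to 33.3%) and 765 wider peaks (11.2%, 10.4 to 11.9%). The 5 values were chosen as the most frequent among the minimum-width peaks, so the higher share there is partly fixed by the choice. The values were spaced by 0.83, 0.88, 0.93 and 0.97 from the lowest to the highest, so that the steps widened upwards.

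The same values recurred in wider peaks. Of the 586 peaks, 552 (94.2%) had a score that at least 1 other autosomal peak also had. The same held for 207 of the 226 peaks up to 9 bp wider (91.6%) and for 81.6% of all wider peaks. A score of 3.11 was held by 195 autosomal peaks, of which 34.9% had the minimum width. At 3.99 the share was 31.1% of 286 peaks, at 4.92 it was 15.6% of 270, and at 5.89 it was 8.33% of 204. At the next frequent values of the list, 6.90, 7.94 and 9.02, the minimum-width peaks numbered 9 of 181, 1 of 137 and 0 of 116. The median width of all peaks sharing a value was 264 bp at 3.11, 278 bp at 3.99, 299 bp at 4.92 and 344 bp at 5.89. It was 353 bp at 6.90, 428 bp at 7.94 and 420 bp at 9.02. The list median of 7.94 is itself one of these frequent values. What the steps stand for was not tested.

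**Figure D2:**
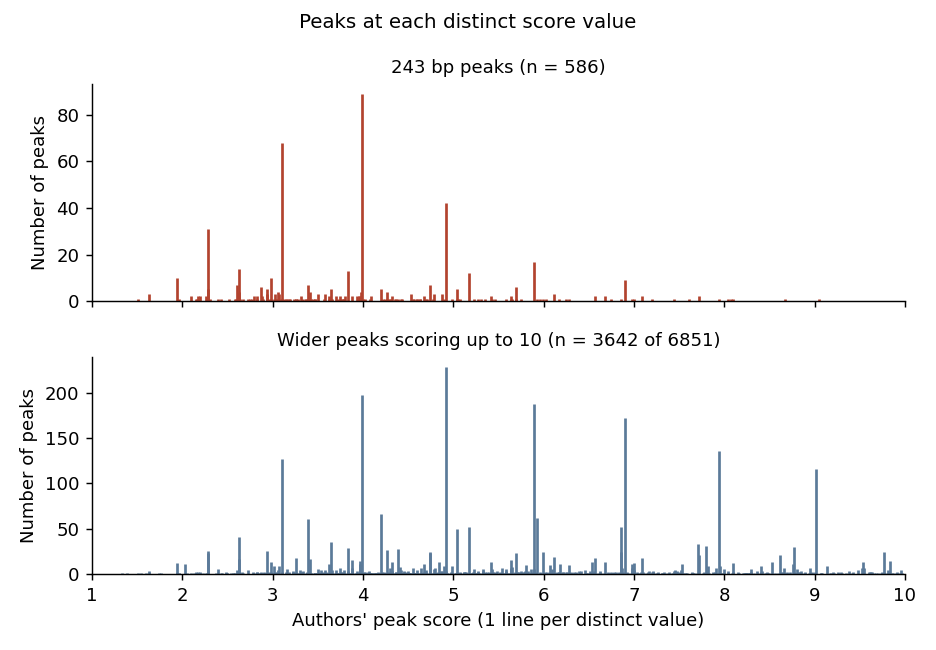
Number of peaks (vertical axis) at each distinct value of the authors' score (horizontal axis), for minimum-width peaks (upper panel) and for wider peaks scoring up to 10 (lower panel); each line is 1 value. The tallest lines of the upper panel are at 3.99 (89 peaks) and 3.11 (68 peaks), and lines stand at the same positions in the lower panel.

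The highest-scoring minimum-width peak, with a score of 9.04, lay on chromosome 12 (10766364 to 10766606), 528 bp from a wider peak of 373 bp that scored only 2.62. The second, with a score of 8.67, was on chromosome 21 (45687789 to 45688031). The next in order were on chromosome 15, where the peak from 35180801 to 35181043 scored 8.10 and the peak from 91248440 to 91248682 scored 8.08. The fifth, on chromosome 20 (29790542 to 29790784), had a score of 8.04, and its nearest wider peak, 15175 bp away, scored 99.9. None of these 5 ranked above place 3354 of the 7437 autosomal peaks. Their surroundings differed: 4 of them had no other peak near enough to be joined into a pair or group, and the gap to the nearest wider peak ran from 528 to 971316 bp.

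The lowest-scoring minimum-width peak, at 1.51, was on chromosome 11 (813810 to 814052). It lay 230 bp from another minimum-width peak (814283 to 814525) that scored 3.11. The next score, 1.63, was shared by 3 peaks. The peak on chromosome 2 (20510880 to 20511122) lay 114 bp from a wider peak scoring 5.04, and that on chromosome 11 (72210185 to 72210427) lay 96 bp from a wider peak scoring 5.89. The peak on chromosome 19 (49973083 to 49973325) stood alone, with its nearest peak of any width 29868 bp away. The weakest peaks thus included both close neighbours of other peaks and an isolated one.

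Distance to the nearest wider peak was measured from edge to edge on the same chromosome. For the minimum-width peaks the median gap was 32.8 kb (95% interval of the median 25.2 to 39.9 kb), with quartiles of 1.24 and 107 kb. For the wider peaks, each measured to the nearest other wider peak, the median was 46.7 kb (43.6 to 49.2 kb), with quartiles of 2.52 and 167 kb. The intervals of these medians did not overlap, and the minimum-width peaks were the closer set. The difference lay at longer range. Within 100 kb of a wider peak were 73.4% of the minimum-width peaks (69.6 to 76.9%) and 64.9% of the wider peaks (63.8 to 66.0%), whereas within 1 kb the shares were 142 of 586 (24.2%, 20.8 to 27.9%) and 1487 of 6851 (21.7%, 20.7 to 22.7%), with overlapping intervals. Within 250 bp they were 9.73% and 11.4%, again with overlapping intervals. The smallest gap between any 2 autosomal peaks was 51 bp, so no closer neighbours occur in the list.

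The shorter gap was shared by other narrow peaks. The median was 21.7 kb (13.4 to 35.1 kb) for peaks up to 9 bp wider and 28.5 kb (21.6 to 35.2 kb) for the rest of the peaks up to 300 bp, and both intervals overlapped that of the minimum-width peaks. It was 43.7 kb for peaks above 300 and up to 500 bp and 76.2 kb (62.5 to 90.995 kb) for peaks above 1000 bp. A comparison at like score, added after the values had been seen, gave the opposite order. Between the quartiles of the minimum-width scores, 3.10 to 4.78, the 1051 wider peaks had a median gap of 19.1 kb (15.3 to 25.3 kb) and the 294 minimum-width peaks a median of 33.3 kb (24.8 to 45.3 kb), with intervals that overlapped slightly. The contrast within 100 kb was not seen at like score. The shares were 72.4% of these minimum-width peaks (67.0 to 77.5%) and 73.5% of these wider peaks (70.7 to 76.1%). Among all peaks up to 9 bp wider it was 72.1% (65.8 to 77.9%).

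**Figure D3:**
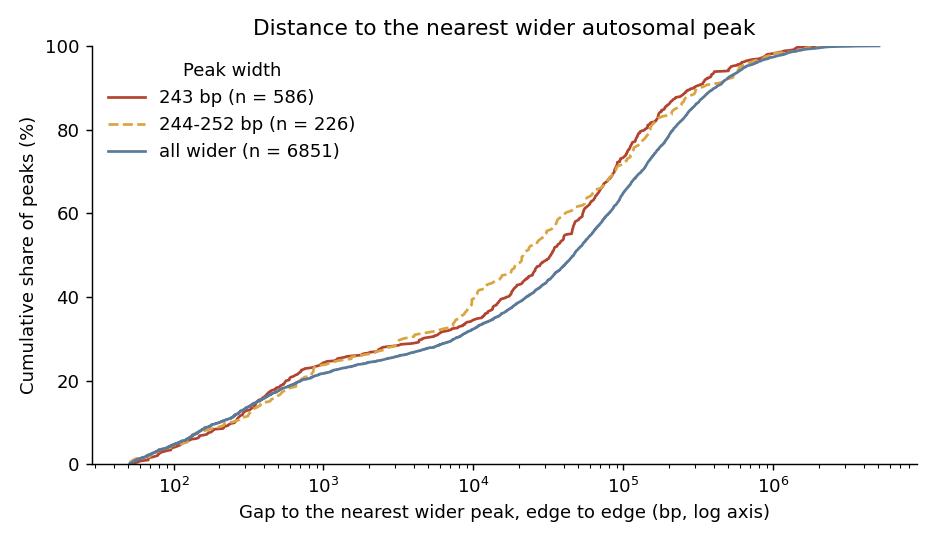
Cumulative share of peaks in % (vertical axis) against the gap to the nearest wider peak in bp (log axis), for minimum-width peaks, peaks up to 9 bp wider and all wider peaks. The curves run together below 1000 bp. At 100 kb the minimum-width curve is above that of all wider peaks, with 73.4% against 64.9%, and peaks up to 9 bp wider reach 72.1%.

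By chromosome, the median gap of the minimum-width peaks was smaller than that of the wider peaks on 17 of the 22 autosomes and larger on 5. It ranged from 2.34 kb on chromosome 10, where 8 of 19 peaks lay within 1 kb of a wider peak, to 173 kb on chromosome 3, where 4 of 31 did. On chromosome 10 the wider peaks had a median gap of 63.8 kb and on chromosome 3 of 89.7 kb. Chromosome 19 had 12.4 kb against 25.8 kb, and chromosome 11 had 18.0 kb against 11.8 kb. Several of these medians rest on few peaks, with 7 on chromosome 13 and 8 on chromosome 16.

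The surroundings of the minimum-width peaks were somewhat richer in peaks. A median of 10 wider peaks (interval 9 to 11, quartiles 5 and 20) lay within 1 Mb on either side of a minimum-width peak, against 8 (8 to 8, quartiles 4 and 16) around a wider peak, the peak itself left out. Around the peaks up to 9 bp wider the median was 9 (7 to 12, quartiles 4 and 19), with an interval that overlapped both. At like score the medians were 10 (8 to 12) around minimum-width peaks and 11 (10 to 11) around wider peaks, which overlap. The most isolated minimum-width peaks were on chromosome 4. The peak from 160244160 to 160244402 scored 3.97 and had a gap of 2026923 bp, and the peak from 164484597 to 164484839 scored 2.63 and had a gap of 1768501 bp. The third, on chromosome 6 (146098277 to 146098519), scored 3.99 and lay 1449447 bp from a wider peak.

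No trend of score with isolation was seen among the minimum-width peaks, while median scores were higher at larger gaps among the wider ones; the difference between the sets was not tested. The median score was 3.95 for the 142 peaks up to 1 kb from a wider peak, 3.74 for the 60 between 1 and 10 kb, 3.99 for the 228 between 10 and 100 kb, and 3.98 for the 156 beyond 100 kb. All 4 intervals of these medians overlapped. Among the wider peaks the medians in the same order were 6.90, 7.71, 9.54 and 11.3, and the interval of the last (10.5 to 11.8) lay above that of the first (6.86 to 7.44). Spearman's rho of score and gap was 0.04 across the 586 peaks and 0.17 across the 6851 wider peaks, as a description of peaks that share 1 library. The narrow range of scores at the minimum width is fixed in part by the choice of width, which also limits how far the score can move with the gap. For the 226 peaks up to 9 bp wider the rho was 0.07.

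**Figure D4:**
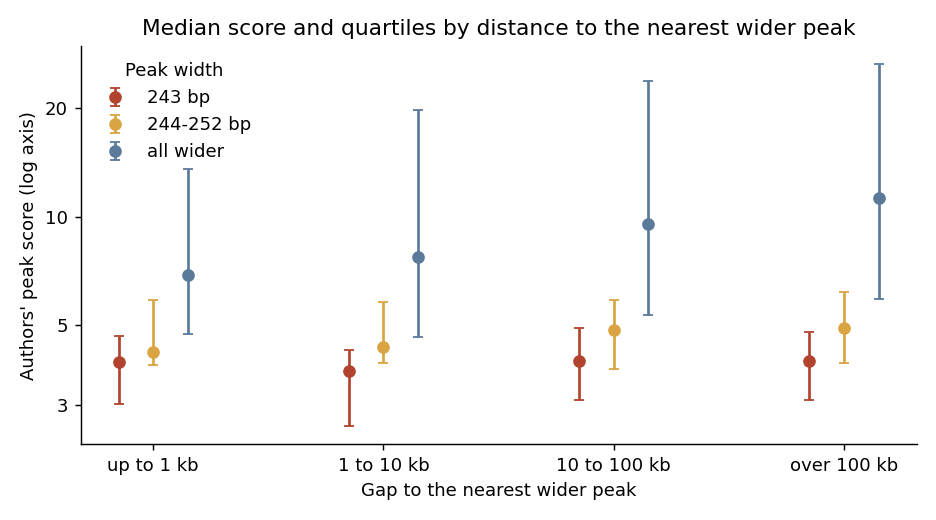
Authors' peak score (log axis) against the gap to the nearest wider peak in 4 bins, for minimum-width peaks, peaks up to 9 bp wider and all wider peaks. Points are medians and bars span the quartiles; the red medians lie between 3.74 and 3.99 in all bins, while those of all wider peaks go from 6.90 to 11.3.

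For the 142 minimum-width peaks with a wider peak within 1 kb, that neighbour was usually the stronger peak. The neighbour had the higher score in 121 cases (85.2%), the lower in 18 and the same in 3. The neighbour was also the higher for 36 of 53 such peaks up to 9 bp wider (67.9%). Among 1487 wider peaks it was the higher for 731 (49.2%), the lower for 729 and the same for 27. Close wider peaks are often each other's nearest, which counts a pair once as higher and once as lower. The share of 49.2% is thus held near an equal split and is no baseline for the 85.2%. The minimum-width peaks are weak as a set, so the higher score of their neighbours is not independent of the choice by width. Of the neighbours, 74 of 142 (52.1%) were at or above the list median of 7.94. The median score of neighbours was 7.94 (quartiles 4.92 and 15.5, highest 301), and their median width was 428 bp. Wider peaks with another wider peak within 1 kb had neighbours with a median score of 6.90 and a median width of 425 bp, of which 44.5% reached the list median. The nearest wider peak lay at lower coordinates for 69 of the 142 (48.6%, 40.1 to 57.1%), an interval that includes an equal split. A wider peak within 1 kb on both sides was found for 10 of the peaks, on the lower side only for 64 and on the higher side only for 68.

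The closest neighbours were 54, 55 and 58 bp away. A minimum-width peak on chromosome 14 (95412089 to 95412331, score 3.11) lay 54 bp before a wider peak of 1079 bp with a score of 27.8. Another on chromosome 15 (72513435 to 72513677, score 3.96) lay 55 bp after a peak of 790 bp with a score of 6.03. The gap of 58 bp was shared by 2 peaks. That on chromosome 6 (108546185 to 108546427, score 2.28) lay after a peak of 265 bp that scored 2.63, and the other was on chromosome 12 (122030601 to 122030843, score 2.62). The neighbour on chromosome 14 scored above the list median, and those on chromosomes 15 and 6 scored below it.

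Grouping was described by joining autosomal peaks of any width with gaps up to a set joining distance. Of the 586 peaks, 360 stood alone (61.4%, 57.4 to 65.4%), 139 were in a pair (23.7%, 20.3 to 27.4%) and 87 were in a group of 3 or more (14.8%, 12.1 to 17.99%). The wider peaks were divided in nearly the same way, with 64.0% alone (62.9 to 65.2%), 22.4% in a pair (21.4 to 23.4%) and 13.6% in a group (12.8 to 14.4%), and all 3 pairs of intervals overlapped. Large groups held few of the minimum-width peaks. Groups of 10 or more peaks contained 2 of them (0.341%, 0.0414 to 1.23%) and 73 wider peaks (1.07%, 0.836 to 1.34%), again with overlapping intervals. At like score, 42 of 294 minimum-width peaks (14.3%, 10.5 to 18.8%) and 212 of 1051 wider peaks (20.2%, 17.8 to 22.7%) were in groups, with overlapping intervals.

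Few groups held more than 1 minimum-width peak. Of the 278 autosomal groups of 3 or more, 197 contained no minimum-width peak, 75 contained 1 and 6 contained 2, the most in any group. No group of 3 or more consisted of minimum-width peaks only. These groups held 87 minimum-width and 930 wider peaks, and minimum-width peaks were 7.88% of the autosomal list. With so small a share, few groups can hold 2, and a departure from that share was not tested. Of the pairs, 127 joined a minimum-width peak to a wider one and 6 joined 2 minimum-width peaks. Pairs held 139 minimum-width and 1535 wider peaks, so most pairs had no minimum-width peak. These counts were likewise not tested against that share. Within the groups, 55 of the 87 minimum-width peaks (63.2%) were the lowest-scoring member, ties included, and 1 was the highest. This again is not independent of the choice by width, and no like count is given for other narrow peaks. The 6 groups with 2 minimum-width peaks are tied, and the first 3 in chromosome order lay on chromosomes 1 and 2. On chromosome 1 (16891423 to 16906991) a group of 3 peaks held 2 of the minimum width, with scores of 4.56 and 5.93, beside a peak scoring 384. On chromosome 2, a group of 5 peaks (94886764 to 94910482) held 2 with scores of 3.70 and 1.93, and a group of 3 peaks (213110332 to 213111933) held 2 with scores of 3.99 and 4.74.

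Another minimum-width peak lay within 1 kb of 12 of the 586 peaks (2.05%, 1.06 to 3.55%), and a minimum-width peak lay within 1 kb of 159 of the 6851 wider peaks (2.32%, 1.98 to 2.71%), with overlapping intervals. The 12 peaks formed 6 couples with gaps of 168 to 883 bp, on chromosomes 2, 5, 9, 11, 12 and 21. The closest couple was on chromosome 9 (138234226 to 138234468 and 138234637 to 138234879), 168 bp apart, with scores of 4.32 and 6.90. A couple on chromosome 12 (24606850 to 24607092 and 24607322 to 24607564), with scores of 3.96 and 5.04, stood far from any wider peak, at gaps of 1395421 and 1394949 bp. These couples were singled out after their values had been seen.

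Chromosome shares of the minimum-width peaks followed those of the wider peaks. The intervals of both shares overlapped on all 22 autosomes. Chromosome 19 held the most, with 53 peaks (9.04%, 6.85 to 11.7%) against 7.02% of the wider peaks (6.43 to 7.65%). Chromosome 1 held 51 (8.70% against 8.98%), chromosome 11 held 49 (8.36%, 6.25 to 10.9%, against 7.56%) and chromosome 17 held 43 (7.34% against 6.92%). The fewest were on chromosome 13, with 7 (1.19%, 0.482 to 2.45%, against 2.23%), and on chromosome 16, with 8 (1.37% against 2.15%). These shares follow the number of peaks called on each chromosome, and chromosome copy number in VCaP was not measured here.

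Taken within a chromosome, the percentage of its peaks that had the minimum width ran from 4.38% on chromosome 13 (7 of 160, 1.78 to 8.81%) to 9.93% on chromosome 19 (53 of 534, 7.52 to 12.8%). Chromosomes 22 and 12 followed with 9.82% and 9.79%. The interval of every autosome included the 7.88% of the autosomal list, so no chromosome could be told apart from it at these counts. Median scores of the minimum-width peaks ran from 3.11 on chromosome 17 to 4.45 on chromosome 18, the latter from 10 peaks. In the dense stretch of chromosome 11 from 60 to 70 Mb, 18 of 279 peaks had the minimum width (6.45%, 3.87 to 10.0%), compared with 31 of 288 on the rest of the chromosome (10.8%, 7.43 to 14.9%), with overlapping intervals. The stretch held 3.07% of the minimum-width peaks (1.83 to 4.81%) and 3.81% of the wider ones (3.37 to 4.29%).

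**Figure D5:**
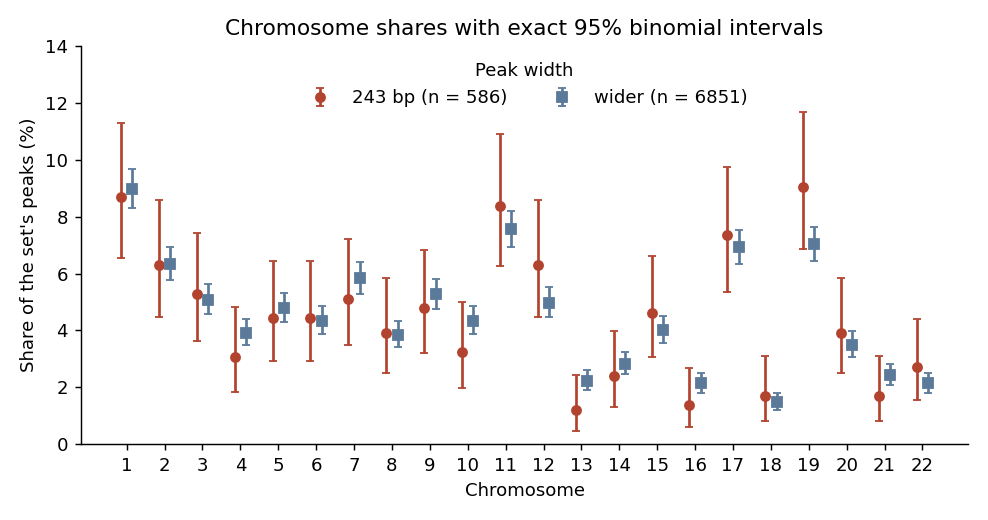
Share of each set's peaks in % (vertical axis) on each autosome, for the 586 minimum-width peaks (circles) and the 6851 wider peaks (squares), with exact 95% binomial intervals as bars. The intervals of both sets overlap on all 22 chromosomes; chromosome 19 has 9.04% of the minimum-width peaks and 7.02% of the wider ones.

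None of the minimum-width peaks lay on a region enriched in input chromatin. An overlap of at least 1 bp with an input peak was found for 0 of 586, which allows a share of up to 0.512% (3 counts of the total) and gives an exact interval of 0 to 0.628%. Of the wider peaks 32 overlapped an input peak (0.467%, 0.320 to 0.659%), a share within what the count of 0 allows, so a difference was not detectable with this number of peaks. Among the 226 peaks up to 9 bp wider, 2 overlapped an input peak (0.885%, 0.107 to 3.16%). The minimum-width peak closest to an input peak was on chromosome 7 (158055773 to 158056015), at a gap of 24587 bp, and 6 of the peaks were within 100 kb of one. Chromosome 15 had no input peak, so the 27 minimum-width peaks there had no such distance. The labels do not say whether input served as the control when SOX9 peaks were called, which could by itself reduce such overlap.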

How the data were processed

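Each library was deposited by the authors as a headerless list whose 5 columns hold each peak's chromosome, start, end, name and score. Starts and ends deposited by the authors are positions in bp of build hg18, per the submitters' processing notes, which also name CASAVA 1.8.2. The scale of the score deposited by the authors, the aligner, the peak caller and its thresholds were not given in the sources used here, so scores were used only within the SOX9 list. Starts were converted to 1-based positions. No hg18 genome was used, so sequences, motifs and genes under the peaks were not analysed here.

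The minimum width of the SOX9 list was 243 bp, and the peaks up to 9 bp wider ran from 244 to 252 bp. Gaps ran from edge to edge on 1 chromosome, and groups joined autosomal peaks of any width with gaps of at most 12.5 kb. Shares have exact Clopper-Pearson 95% intervals and medians have exact binomial order-statistic 95% intervals. They take each peak as independent and include no error beyond counting, and PCR copies were not marked by molecular identifiers. Intervals were compared by overlap, without a test, since 1 library per group allows none. Distances, groups and overlaps were tested on simulated data. Regions named by position were the 5 highest and 3 lowest scores, the 3 largest and 3 smallest gaps, the 3 groups with the most minimum-width peaks, and peaks overlapping input, with ties taken in order of chromosome and start. Ties affected the lowest scores, the smallest gaps and the groups; the tied peaks are also named, and of 6 tied groups 3 are. The peaks, lists and settings were chosen with earlier results of these data known. The couples of minimum-width peaks, the width classes, the frequent score values, the comparison at like score, the side and score of neighbours and the counts within 1 Mb were added after the values had been seen. All steps ran in Python 3.11.15 (scipy 1.17.1, pandas 2.3.3, numpy 2.4.6), with figures from matplotlib 3.10.9.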

Additional observations from a re-analysis of the deposited data

How the results depend on the processing

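Of 37 recomputed values for 8 results, 24 were inside the 95% interval of the value reported. With peaks up to 9 bp wider included, the narrow peaks were 10.9% of the autosomal list and 2.96% of them reached the list median score; among peaks at or above that median, minimum-width peaks were 0.156%, and 0 of those 6 lay on chromosome 11. The median gap was 87334 bp to wider peaks at or above the list median, and 13.7% of the minimum-width peaks had such a peak within 1 kb, against 106061 bp and 10.4% for the wider peaks. The share near a wider peak was 18.3% within 500 bp, 30.2% within 5 kb and 36.3% within the joining distance of groups, against 17.6%, 27.8% and 34.1% of the wider peaks. The share in groups was 8.19% with gaps up to 5 kb, 23.5% with gaps up to 25 kb and 38.6% when groups of 2 counted. For the wider peaks it was 9.09%, 19.8% and 36.0% in the same order. When groups of 2 counted, the intervals overlapped (34.6 to 42.6% and 34.8 to 37.1%). Without the 60 to 70 Mb stretch, chromosome 11 held 5.46% of the minimum-width peaks. Wider peaks leave the chromosome at this setting too. Of its remaining peaks 10.8% (7.43 to 14.9%) had the minimum width, against 7.94% of the autosomal list without the stretch. These alternatives change the definition or the set counted, which is why the values moved. Overlap with input stayed at 0 under each setting run for the minimum-width peaks, and was 0.246% (2 of 812) with peaks up to 9 bp wider included. The read depth is unknown. No paired analysis was possible because each group has 1 library, which also means that none could be left out.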
